A study of Mus musculus with 32 samples.

Results

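The genes described here encode the nuclear share of the mitochondrial respiratory chain, measured as RNA in mouse thymocytes before and after gamma irradiation. They are all gene names of the array that begin with Nduf, Uqcr, Sdh, Atp5 or Cox4 to Cox8, with the testis isoform Cox6b2 left out. The rule used names only and no measured value, and it found 81 of the 27962 gene names on the array. Of these, 80 had a probe that 4 or more of the 32 arrays read as well above background, among 19971 gene names with one, and 78 were well above background on all 32 arrays. Cox8c, a testis isoform of cytochrome c oxidase, had no such probe and was not tested. The names comprise 35 subunits of complex I, 4 of complex II, 7 of complex III, 16 of complex IV, 15 of complex V and 4 other genes. Those 4 are the complex I assembly factor Ndufaf1, the supercomplex factor Cox7a2l, the coupling factor Atp5s, and Cox4nb, which carries a Cox name because it lies beside Cox4i1 and encodes a subunit of the ER membrane complex (now Emc8).

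Thymocytes came from C57Bl/6 mice 6 weeks old, and every sample pooled 2 mice, 1 male and 1 female per the labels. P72 and R72 mice, in the field's naming proline or arginine at codon 72 of p53, were measured at 0, 2 and 4 h after 5 Gy of gamma rays from a caesium source, with 4 arrays per group from independent experiments. P53-/- and P53+/+ mice were measured on 2 untreated arrays each and on 1 array each at 2 h and at 4 h after the same dose. The study asked whether the codon 72 forms differ in their radiation response. The labels do not say how the P72, R72 and P53-/- alleles were made or which part of the gene was removed.

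Complex I (NADH dehydrogenase) and complex II (succinate dehydrogenase) pass electrons from NADH and succinate to ubiquinone, complex III (cytochrome bc1) passes them to cytochrome c, and complex IV (cytochrome c oxidase) to oxygen. Complexes I, III and IV pump protons, and complex V (ATP synthase) lets them flow back through its membrane ring and stalk to drive the catalytic F1 head. Most subunits are encoded in the nucleus, under promoters known for sites of the factors NRF1, ETS family GABP, YY1 and ERR, and the core pumping subunits in mitochondrial DNA. Thymocytes are mostly CD4 CD8 double positive T cell precursors, which are known to die within hours of irradiation in a p53-dependent way.

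Because the members share a pathway, the promoters of 4 of them are shown with the motif matches found there, as reference sequence from RefSeq (build GRCm38.p6). Each runs over the 250 bases before the annotated start, and capitals mark matches to the NRF1 motif (GCGCA, any base, GCGC), the ETS motif CCGGAAG and the CCAAT box CCAAT on either strand. Atp5g1 (a c-ring subunit of ATP synthase, chr11:96075632-96075881, minus strand) is shown because it fell most among the chain subunits in P72 and R72 at 4 h. Atp5h (peripheral stalk of ATP synthase, chr11:115419920-115420169, minus strand), Cox6a1 (subunit of cytochrome c oxidase, chr5:115348959-115349208, minus strand) and Sdhd (membrane anchor of succinate dehydrogenase, chr9:50603850-50604099, minus strand) are shown because each holds both an NRF1 and an ETS match.
Atp5g1: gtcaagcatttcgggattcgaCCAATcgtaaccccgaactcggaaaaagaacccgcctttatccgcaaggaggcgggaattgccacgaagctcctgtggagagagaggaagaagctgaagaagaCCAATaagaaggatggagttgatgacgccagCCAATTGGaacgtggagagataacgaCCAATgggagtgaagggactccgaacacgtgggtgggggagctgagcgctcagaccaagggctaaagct
Atp5h: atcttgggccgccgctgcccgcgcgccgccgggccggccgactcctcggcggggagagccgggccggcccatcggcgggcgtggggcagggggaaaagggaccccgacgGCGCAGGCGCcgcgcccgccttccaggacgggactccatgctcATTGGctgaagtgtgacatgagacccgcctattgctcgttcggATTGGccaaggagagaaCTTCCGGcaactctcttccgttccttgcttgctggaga
Cox6a1: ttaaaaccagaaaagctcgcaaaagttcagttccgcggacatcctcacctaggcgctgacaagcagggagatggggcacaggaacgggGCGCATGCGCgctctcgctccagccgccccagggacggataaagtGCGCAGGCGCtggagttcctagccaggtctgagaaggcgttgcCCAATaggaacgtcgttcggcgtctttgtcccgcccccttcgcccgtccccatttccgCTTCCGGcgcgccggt
Sdhd: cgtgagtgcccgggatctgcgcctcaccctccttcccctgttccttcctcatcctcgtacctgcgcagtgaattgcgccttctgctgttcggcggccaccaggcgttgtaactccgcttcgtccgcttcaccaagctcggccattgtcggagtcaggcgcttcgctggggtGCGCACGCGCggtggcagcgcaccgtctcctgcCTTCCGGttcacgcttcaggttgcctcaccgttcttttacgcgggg
In Atp5g1 there was no NRF1 or ETS match, but 5 CCAAT matches, of which 1 pair, on opposite strands, shared bases. A promoter was listed for 64 members and 26961 other genes, and the first listed was used. The NRF1 motif was found in 11 members (17.2%) and 3.83% of other genes, and the ETS motif in 12 (18.8%) and 7.02%. The ERR motif AAGGTCA was found in 5 members (7.81%) and 4.04% of other genes, and the CCAAT box in 27 (42.2%) and 34.4%. The YY1 motif AAGATGGCG was found in 0 members and 0.608% of other genes, and the p53 half-site consensus in 3 members (4.69%) and 7.19%. These matches are letters in a window and describe no binding.

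Levels are on the log2 scale, as signal over the 75th percentile of its own array, so they compare arrays and never one probe with another. The 75th percentile lay between 268 and 1031 fluorescence units, 52.2% to 71.2% of probes were well above background, and no spot was saturated. Summed linear signal of the 10 double positive thymocyte markers was 1070 to 1170 times the 75th percentile at 4 h and 994 to 1240 at 0 h in P72, and 1140 to 1190 at 4 h and 1010 to 1150 at 0 h in R72. Xist, the RNA of the inactive X chromosome, lay between -7.92 and -3.73 on P72 and R72 replicates 1 and 3 and between 5.11 and 5.83 on replicates 2 and 4, although the labels give each pool both sexes. It was at 5.50 on both irradiated P53+/+ arrays and at -1.46 and -0.88 on the untreated ones, so irradiation and the sex of the mice cannot be told apart in P53+/+. On the 4 P53-/- arrays it lay between -8.82 and -7.20. In a pool of cells, fewer cells of a type and less RNA per cell cannot be told apart. Changes are log2 differences ± the standard error from limma. The p-values, adjusted over all genes, measure the spread between these pooled samples within groups of more than 1 array. Nothing states that the 2 untreated arrays of P53-/- or of P53+/+ are separate pools, so their spread may be technical.

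Respiratory chain RNA was lower after irradiation in both codon 72 lines, by a modest amount in many subunits at once. In P72 at 4 h, 52 of 80 members fell and 2 rose against 0 h, where 20.9% of all genes fell and 36.3% rose. In R72 at 4 h, 50 fell and 1 rose, where 16.1% of all genes fell and 29.2% rose. The median change of the members was -0.36 in P72 and -0.31 in R72, beside 0.11 and 0.098 over all genes, which places it 0.47 and 0.41 lower than the median gene. The call rate differed by brightness, and 70 of the members were above the 75th percentile of mean level over all genes (bright genes below). Of these 70, 49 (70%) fell in P72 and 47 (67.1%) in R72, where 41.8% and 33.3% of all bright genes fell.

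The median level of the members, array by array, was 4.32, 4.38, 4.50 and 4.56 at 0 h, 4.12, 4.36, 4.14 and 4.36 at 2 h and 4.04, 4.08, 4.10 and 4.03 at 4 h in P72. In R72 it was 4.29, 4.36, 4.45 and 4.48 at 0 h, 4.29, 4.10, 4.09 and 4.40 at 2 h and 4.07, 4.02, 4.15 and 4.10 at 4 h. In both lines every array at 4 h lay below every array at 0 h, and the 2 h arrays spread between and across them. Taken member by member, all 4 arrays at 4 h lay below all 4 at 0 h for 51 members in P72 and 52 in R72, against 20.9% and 16.1% of all genes.

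**Figure D1:**
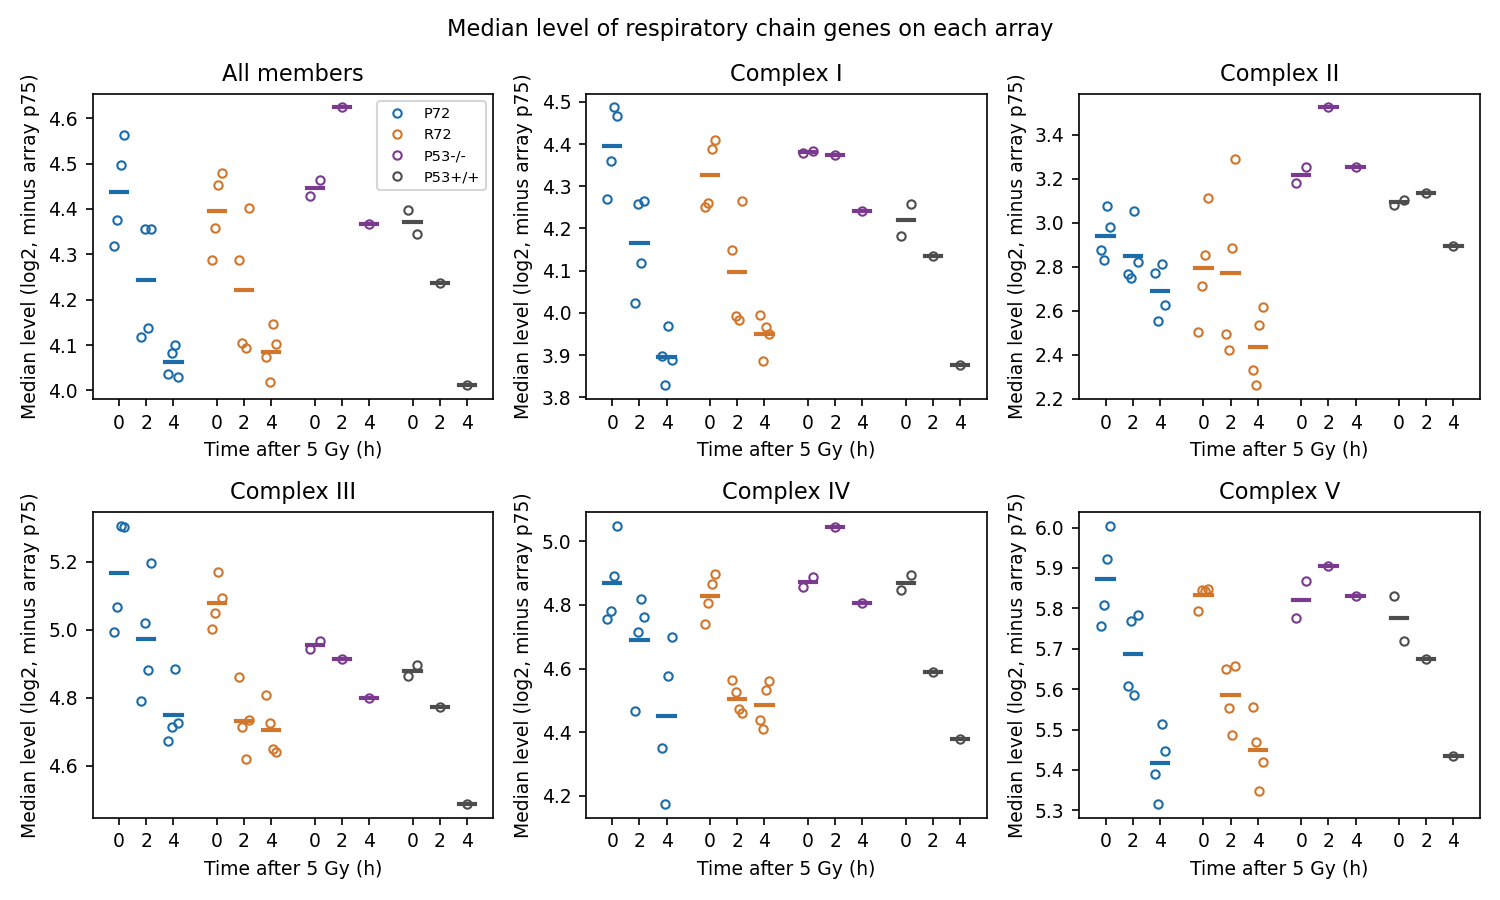
Median level of all 80 measured members and of each complex (vertical axes, log2 of signal over the 75th percentile) against hours after 5 Gy, with 1 open point per array and a bar at the mean of each group. P72 and R72 have 4 arrays per time, and P53-/- and P53+/+ have 2 untreated arrays and 1 array at 2 h and 1 at 4 h. The P72 and R72 medians at 4 h, between 4.02 and 4.15, all lie below those at 0 h, and complex II spreads widely between the R72 arrays of a group.

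Slide and scan date were the batches that held both times of a line. Within the first date (2 arrays per time) the median change of the members at 4 h was -0.31 in P72 and -0.23 in R72, within the second -0.40 in P72, and within the third, with 2 arrays at 4 h and 1 at 0 h, -0.39 in R72. Within the slides that held both times it was -0.33 and -0.36 in P72 and -0.26 and -0.39 in R72, on 1 or 2 arrays per time. How large the fall appears depended on the scaling. Quantile normalization gave a median of -0.21 in P72 and -0.16 in R72, the authors' deposited log2 values -0.24 and -0.18, and centring each array on its median probe -0.95 and -0.77. That last scaling moved the median of all genes to -0.48 and -0.36 and the shares of all genes that rose and fell to 21.1% and 53.4% in P72 and 17.2% and 46.3% in R72. The corresponding shares in P72 were 26.8% and 24% after quantile normalization, 24.5% and 25% in the authors' deposited values and 15.2% and 13.8% after normexp background correction. In R72 they were 18.7% and 17.2% in the authors' deposited values and 2.75% and 3.89% after normexp, which called 4 members. In R72 quantile normalization called 26 members, the authors' deposited values 28 and median centring 77, against 51. After quantile normalization 21% of all genes rose and 16.7% fell in R72. Relative to the median gene, the members stood between -0.23 and -0.81 in P72 and between -0.175 and -0.41 in R72 over these scalings and normexp, below 0 under each.

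Among the 7 core subunits of complex I, which carry its flavin and iron-sulphur clusters, 5 fell in P72 and 5 in R72 at 4 h. Ndufv2, an iron-sulphur protein of the NADH-binding module, was at 2.29, 2.18, 2.31 and 2.22 on the P72 arrays at 4 h, against 2.94, 2.87, 2.89 and 3.09 at 0 h. The sets did not overlap, and Ndufv2 fell by 0.70 ± 0.12 (limma adjusted p = 7.17e-05). In R72 it fell by 0.41 ± 0.12 (limma adjusted p = 0.00881). Ndufs8, another iron-sulphur subunit, fell by 0.57 ± 0.17 in P72 and fell by 0.43 ± 0.17 in R72. The flavoprotein Ndufv1 was the member closest to the threshold without passing it in P72, at -0.21 ± 0.094 (limma adjusted p = 0.0576), and fell by 0.28 ± 0.094 (limma adjusted p = 0.0209) in R72. Ndufs1, the largest core subunit, was at -0.06 ± 0.077 (limma adjusted p = 0.544) in P72 and -0.11 ± 0.077 (limma adjusted p = 0.27) in R72.

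Of the 28 accessory subunits of complex I, which surround the core and are needed for its assembly and stability, 18 fell in P72 and 15 in R72, and none rose in either. Ndufa12 (probe at chromosome 10, 93780198 to 93780257, build mm7) was at 3.90, 3.72, 3.79 and 3.85 at 4 h in P72, against 4.39, 4.44, 4.60 and 4.76 at 0 h. In R72 it was at 3.95, 3.85, 3.70 and 3.73 at 4 h, against 4.34, 4.46, 4.49 and 4.55 at 0 h. All 4 h arrays were lower than all 0 h arrays in both lines. It fell by 0.73 ± 0.095 (limma adjusted p = 3.36e-06) in P72, to 0.603 times its 0 h signal, and fell by 0.65 ± 0.095 (limma adjusted p = 2.37e-05) in R72. Its other 2 probes, listed under the same transcript, fell by 0.76 ± 0.13 and fell by 0.74 ± 0.16 in P72. Ndufab1, the mitochondrial acyl carrier protein, fell by 0.70 ± 0.11 in P72 and fell by 0.56 ± 0.11 in R72.

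Further accessory subunits followed at smaller sizes. Ndufc1 fell by 0.54 ± 0.092 in P72 and fell by 0.54 ± 0.092 in R72, and Ndufs6, a zinc-binding subunit, fell by 0.56 ± 0.11 and fell by 0.44 ± 0.11 there. The X-linked Ndufa1 fell by 0.48 ± 0.11 in P72 and fell by 0.32 ± 0.11 in R72. The X-linked Ndufb11 fell by 0.30 ± 0.085 (limma adjusted p = 0.00538) in P72 and was at -0.20 ± 0.085 (limma adjusted p = 0.0588) in R72. Not every accessory subunit moved: Ndufa6 was at -0.05 ± 0.10 in P72 and 0.01 ± 0.10 in R72, and Ndufb3 at -0.12 ± 0.091 and -0.12 ± 0.091. Ndufb10 and Ndufa13, at -0.21 ± 0.10 and -0.20 ± 0.095 in P72, also missed the threshold.

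Complex II has 4 subunits, all nuclear, and takes part in the citric acid cycle as well as the chain. Its catalytic flavoprotein Sdha fell by 0.33 ± 0.085 (limma adjusted p = 0.00266) in P72 and fell by 0.30 ± 0.085 (limma adjusted p = 0.0073) in R72. Sdhb, its iron-sulphur subunit (probe spanning chromosome 4, 140345040 to 140349607, build mm7), was at 3.29, 3.03, 3.41 and 3.26 at 4 h in P72, against 3.38, 3.40, 3.92 and 3.90 at 0 h. In R72 it was at 2.57, 2.45, 2.84 and 2.82 at 4 h, against 2.80, 3.05, 3.44 and 3.63 at 0 h. The 0 h arrays of each line fell into a higher and a lower pair. In each line the lower pair was replicates 1 and 2, scanned on the first date. The higher pair was replicates 3 and 4, scanned on other dates. The part of the batch in this split was not tested. The change of Sdhb was -0.40 ± 0.22 (limma adjusted p = 0.127) in P72, while in R72 Sdhb fell by 0.56 ± 0.22 (limma adjusted p = 0.0423). The anchor Sdhd fell by 0.33 ± 0.12 (limma adjusted p = 0.0226) in P72 and was at -0.20 ± 0.12 (limma adjusted p = 0.166) in R72, and the other anchor Sdhc was at -0.11 ± 0.12 (limma adjusted p = 0.473) and -0.16 ± 0.12 (limma adjusted p = 0.311) there.

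Of the 7 subunits of complex III, 5 fell in each line at 4 h. Uqcrq, a small subunit next to cytochrome b, was at 5.21, 5.17, 5.28 and 5.13 at 4 h in P72, against 5.66, 5.76, 5.86 and 5.91 at 0 h, with no overlap. It fell by 0.60 ± 0.092 (limma adjusted p = 2.13e-05) in P72 and fell by 0.52 ± 0.092 (limma adjusted p = 0.000173) in R72. The core protein Uqcrc1 fell by 0.34 ± 0.087 and fell by 0.38 ± 0.087, and Uqcr (now Uqcr11) fell by 0.42 ± 0.092 and fell by 0.37 ± 0.092, each in P72 and then R72. The Rieske iron-sulphur protein Uqcrfs1 fell by 0.29 ± 0.11 (limma adjusted p = 0.0365) in P72 and was at -0.19 ± 0.11 (limma adjusted p = 0.179) in R72. Uqcrc2 was at -0.16 ± 0.079 (limma adjusted p = 0.0887) in P72 and fell by 0.23 ± 0.079 (limma adjusted p = 0.0246) in R72, a change whose sign turned to 0.04 in the authors' deposited log2 values. Uqcrh, the hinge protein that meets cytochrome c1, did not pass the threshold in either line. It was at 7.46, 7.59, 7.67 and 7.54 at 4 h in P72, against 7.48, 7.62, 7.61 and 7.61 at 0 h, a change of -0.02 ± 0.094 (limma adjusted p = 0.893), and its change in R72 was -0.05 ± 0.094 (limma adjusted p = 0.684).

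**Figure D2:**
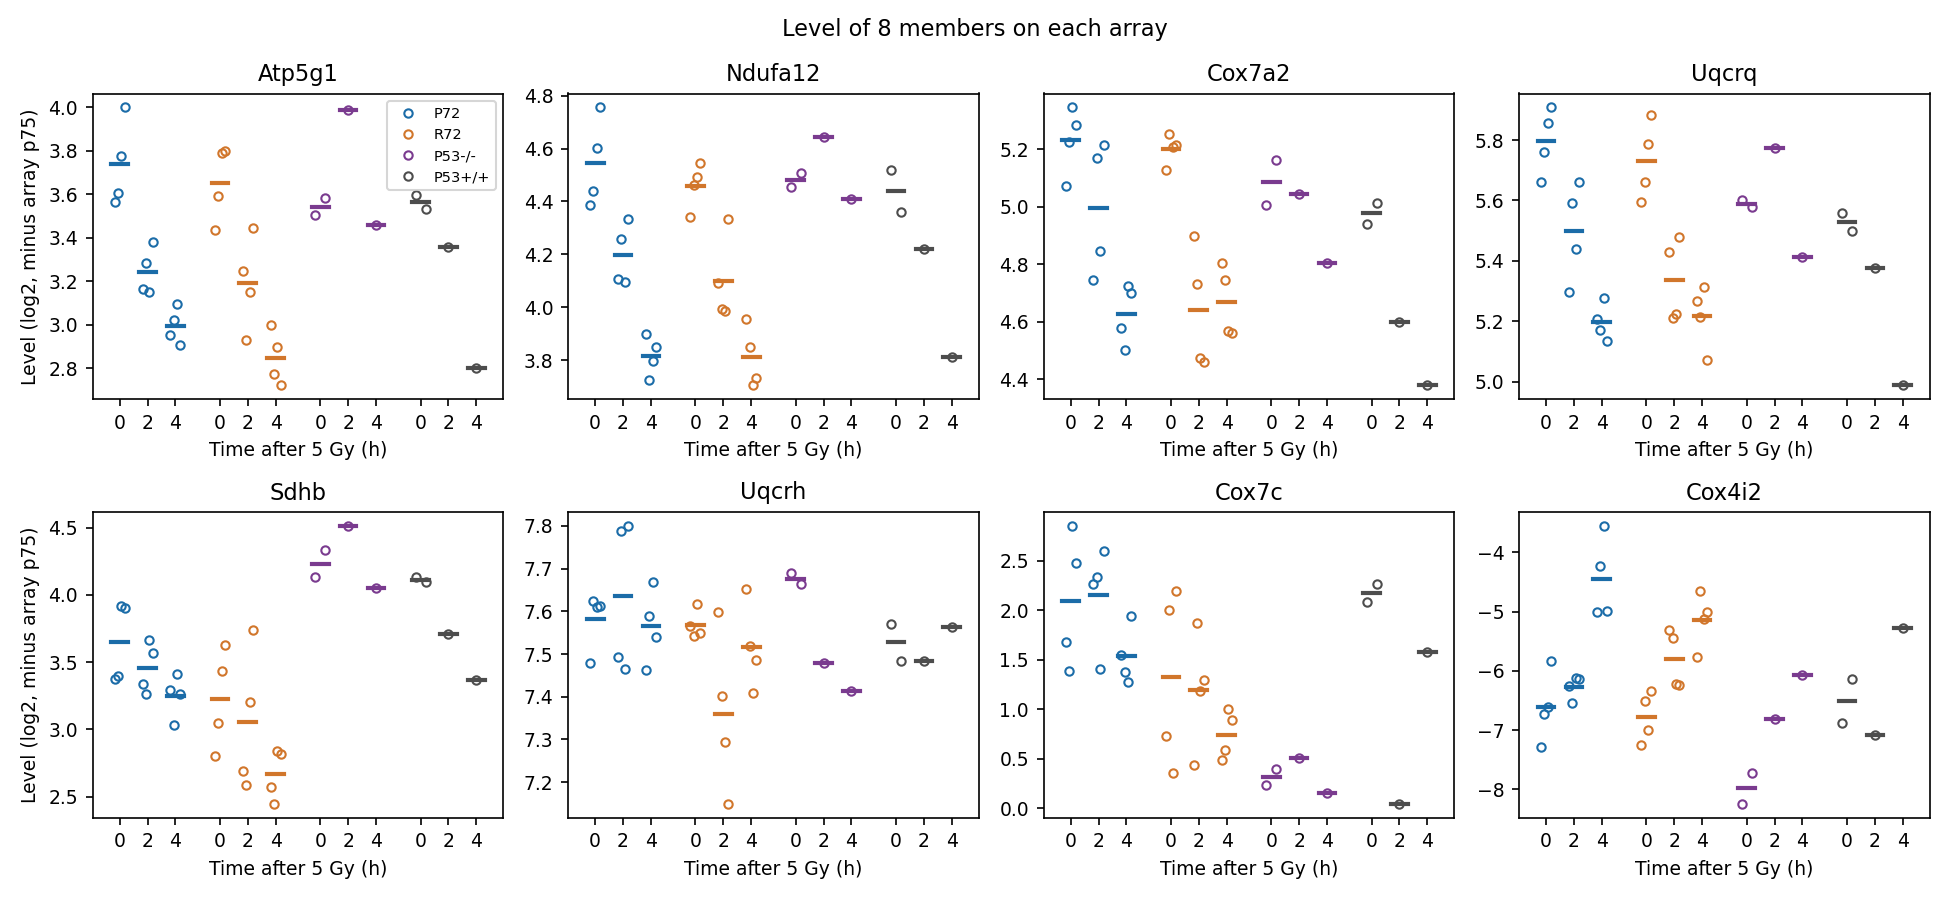
Level of 8 members on each array (log2 of signal over the 75th percentile) against hours after 5 Gy, with 1 open point per array and a bar at the mean of each group, on a separate vertical scale for each gene. Atp5g1, Ndufa12, Cox7a2 and Uqcrq are lower on every P72 and R72 array at 4 h than at 0 h, Uqcrh overlaps, Sdhb and Cox7c spread widely within groups, and the dim Cox4i2 is higher at 4 h in P72 and R72.

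In complex IV, 7 of the 11 common subunits fell in each line, and none of the tissue isoforms did. Cox7a2, the common form of subunit 7a, was at 4.58, 4.50, 4.72 and 4.7 at 4 h in P72, against 5.07, 5.23, 5.35 and 5.29 at 0 h. In R72 it was at 4.81, 4.74, 4.57 and 4.56 at 4 h, against 5.13, 5.25, 5.21 and 5.22 at 0 h. The sets did not overlap in either line, and Cox7a2 fell by 0.61 ± 0.11 (limma adjusted p = 0.000136) in P72 and fell by 0.53 ± 0.11 (limma adjusted p = 0.000729) in R72. Cox5a, which binds the regulatory thyroid hormone metabolite, fell by 0.57 ± 0.099 and fell by 0.55 ± 0.099, and Cox6a1, the common form of subunit 6a, fell by 0.49 ± 0.11 and fell by 0.34 ± 0.11, in P72 and R72. The X-linked Cox7b fell by 0.38 ± 0.10 in P72 and fell by 0.36 ± 0.10 in R72.

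Cox4i1, the common subunit 4 and an early step of assembly, was at -0.20 ± 0.09 (limma adjusted p = 0.066) in P72 and fell by 0.27 ± 0.09 (limma adjusted p = 0.0193) in R72. Cox8a, the common subunit 8, was at -0.26 ± 0.14 (limma adjusted p = 0.12) and -0.34 ± 0.14 (limma adjusted p = 0.0569), and Cox5b, the member closest to the threshold in R72 without passing it, at -0.23 ± 0.11 (limma adjusted p = 0.0795) and -0.27 ± 0.11 (limma adjusted p = 0.0546). Cox7c varied widely between arrays of 1 group. Its probe (spanning chromosome 13, 83112800 to 83113677, build mm7) read 1.68, 1.38, 2.85 and 2.47 at 0 h in P72 and 0.73, 2.01, 0.36 and 2.19 at 0 h in R72. Its change at 4 h, -0.56 ± 0.40 (limma adjusted p = 0.239) in P72 and -0.58 ± 0.40 (limma adjusted p = 0.247) in R72, did not pass the threshold.

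The tissue isoforms of complex IV are dim here. Cox4i2, the lung form of subunit 4, was at -5.01, -4.22, -3.55 and -4.99 at 4 h in P72, against -7.28, -6.74, -6.61 and -5.84 at 0 h, and at -5.76, -4.65, -5.13 and -5.00 at 4 h in R72, against -7.26, -6.51, -7.00 and -6.34 at 0 h. No array at 0 h was well above background in either line, and 3 of 4 were at 4 h in each. By limma Cox4i2 was 4.5-fold higher at 4 h in P72 (limma adjusted p = 2.59e-05) and 3.12-fold higher in R72 (limma adjusted p = 0.000643). Because the 0 h signals were not well above background, the size of these folds is uncertain. The Cox4i2 probe was well above background on 10 arrays, all of them irradiated. It therefore passed the filter only through irradiated groups, and its test against 0 h is no independent support for a rise. Cox8b, the heart and muscle form of subunit 8, rose by 1.06 ± 0.40 (limma adjusted p = 0.0296) in P72, but the sign turned to -0.070 under quantile normalization and -0.051 in the authors' deposited log2 values, and its change in R72 was 0.46 ± 0.40 (limma adjusted p = 0.368). The heart and muscle forms Cox7a1 and Cox6a2 were at 0.05 ± 0.096 and -0.18 ± 0.21 in P72 and -0.01 ± 0.096 and 0.20 ± 0.21 in R72, past the threshold in neither line. Summed signal of the 6 muscle and brown fat markers kept, of 8 listed, was 0.324 to 0.45 times the 75th percentile at 4 h and 0.165 to 0.238 at 0 h in P72, and 0.271 to 0.412 and 0.2 to 0.282 in R72. Of these 6 markers 4 were called higher in P72 and 2 in R72, where 36.3% and 29.2% of all genes were. The part of such cells in the isoform values was not tested.

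Complex V was the complex with the highest share of subunits that fell: 13 of its 15 subunits fell in P72 at 4 h and all 15 in R72, with medians of -0.48 and -0.39. Atp5g1 (probe at chromosome 11, 96182649 to 96182708, build mm7), 1 of 3 genes for the same c-ring protein, was at 2.95, 3.02, 3.1 and 2.91 at 4 h in P72, against 3.57, 3.60, 3.78 and 4.00 at 0 h. In R72 it was at 3.00, 2.77, 2.90 and 2.72 at 4 h, against 3.43, 3.59, 3.79 and 3.80 at 0 h. Every 4 h array lay below every 0 h array of its line, and Atp5g1 fell by 0.74 ± 0.12 (limma adjusted p = 2.14e-05) in P72 and fell by 0.81 ± 0.12 (limma adjusted p = 1.8e-05) in R72, to 0.597 and 0.571 times the 0 h signal. The second c-ring gene Atp5g3 fell by 0.53 ± 0.092 in P72 and fell by 0.42 ± 0.092 in R72. The other one, Atp5g2, was at -0.20 ± 0.11 (limma adjusted p = 0.116) in P72 and fell by 0.30 ± 0.11 (limma adjusted p = 0.0278) in R72.

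In the catalytic head, the beta subunit Atp5b fell by 0.62 ± 0.07 (limma adjusted p = 7.82e-07) in P72 and fell by 0.53 ± 0.07 (limma adjusted p = 9.69e-06) in R72, and the alpha subunit Atp5a1 fell by 0.44 ± 0.064 and fell by 0.34 ± 0.064 there. The gamma and epsilon subunits of the rotor, Atp5c1 and Atp5e, fell by 0.43 ± 0.095 and fell by 0.38 ± 0.09 in P72, and the delta subunit Atp5d was at -0.18 ± 0.095 (limma adjusted p = 0.104) in P72 and fell by 0.24 ± 0.095 (limma adjusted p = 0.0434) in R72. In the stalk and membrane part, Atp5j2 fell by 0.70 ± 0.084 (limma adjusted p = 1.43e-06) in P72 and fell by 0.51 ± 0.084 (limma adjusted p = 8.48e-05) in R72. Atp5k fell by 0.59 ± 0.13 and fell by 0.46 ± 0.13, and Atp5h, which was at 5.96, 5.84, 6.24 and 6.11 at 4 h against 6.41, 6.27, 6.69 and 6.63 at 0 h in P72, fell by 0.46 ± 0.10 and fell by 0.28 ± 0.10 in P72 and R72.

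Of the other 4 names, Cox4nb, which is no chain subunit, fell by 0.75 ± 0.11 (limma adjusted p = 1.94e-05) in P72 and fell by 0.54 ± 0.11 (limma adjusted p = 0.000794) in R72 and in P72 had the change furthest below 0 of all 80. The assembly factor Ndufaf1 fell by 0.21 ± 0.083 (limma adjusted p = 0.0374) in P72 and was at -0.20 ± 0.083 (limma adjusted p = 0.0585) in R72. Cox7a2l, which joins complexes III and IV into supercomplexes, was at -0.03 ± 0.11 and 0.01 ± 0.11, and Atp5s at 0.14 ± 0.11 and 0.23 ± 0.11, none past the threshold. Of the members that fell at 4 h, 44 were called in both lines, which is 84.6% of the 52 in P72 and 88.0% of the 50 in R72. Of the promoters shown or searched, 37 belonged to members that fell in both lines and 15 to members called in neither. The NRF1 motif was found in 8 of the 37 (21.6%) and 1 of the 15 (6.67%), and the CCAAT box in 17 (45.9%) and 7 (46.7%). For the ETS motif the counts were 9 (24.3%) and 1 (6.67%), and for the ERR motif 5 (13.5%) and 0. The p53 half-site consensus was found in 1 (2.7%) and 2 (13.3%), and the YY1 motif in 0 and 0. These counts are small, and no difference between the 2 sets was tested.

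**Figure D3:**
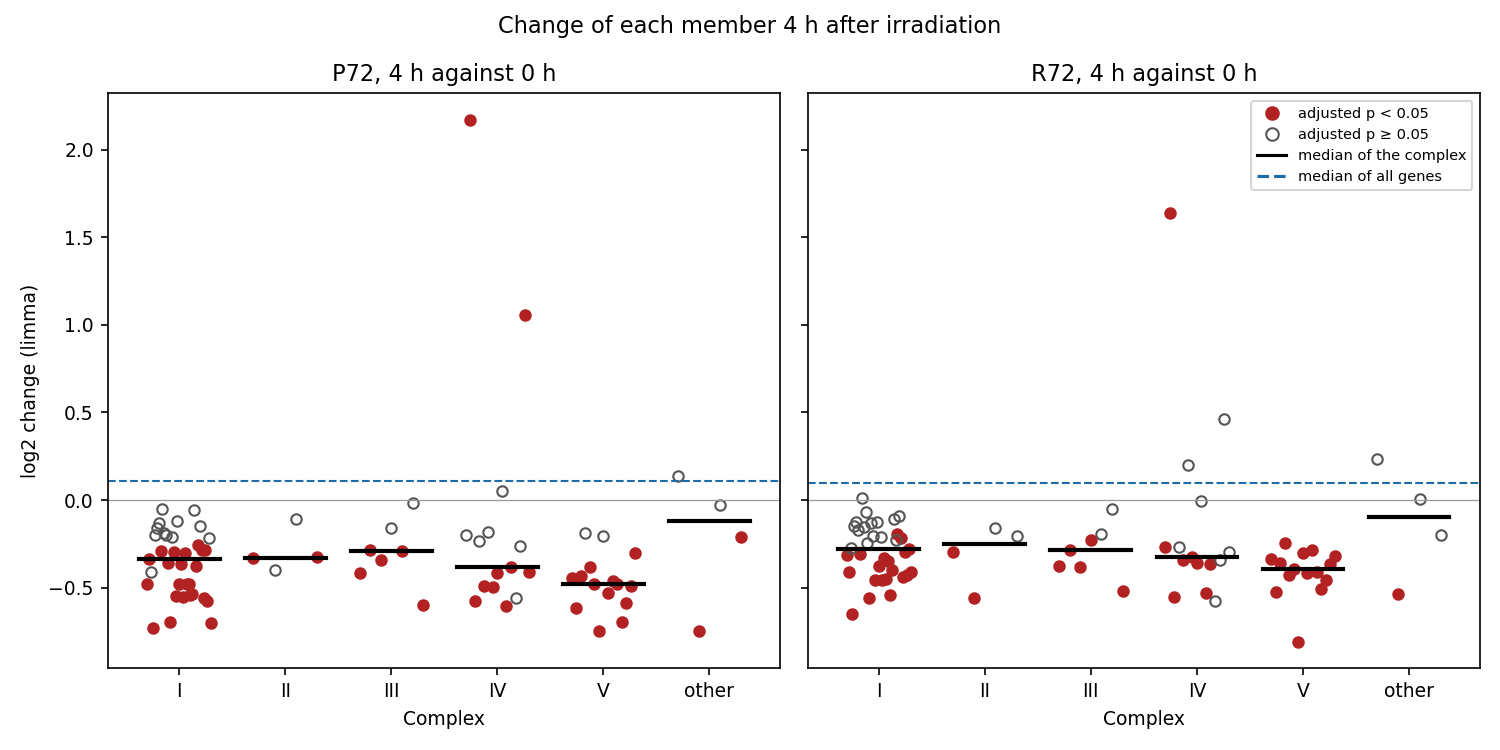
Change of each member at 4 h against 0 h in P72 (left) and R72 (right), as the limma log2 change (vertical axis), by complex (horizontal axis). Filled points passed an adjusted p of 0.05, open points did not, black bars are the median of each complex, and the dashed line is the median of all genes, at 0.11 in P72 and 0.098 in R72. Nearly all points lie below the dashed line. The called points above 0, all in complex IV, are Cox4i2 and Cox8b in P72 and Cox4i2 alone in R72.

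For 22 members more than 1 probe was kept, and in 18 of these all probes had the same sign of change at 4 h in P72. For Atp5f1, a peripheral stalk subunit, probes were called in opposite directions. The probe of its RefSeq transcript (chromosome 3, 105761241 to 105761300, build mm7) fell by 0.48 ± 0.072 (limma adjusted p = 1.77e-05), and a probe of another cDNA fell by 0.74 ± 0.12 (limma adjusted p = 2.6e-05). A dim probe of a different cDNA, at chromosome 3, 105777016 to 105777075, rose by 0.46 ± 0.15 (limma adjusted p = 0.0148). The files do not say which transcripts that cDNA stands for.

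The change was smaller at 2 h. In P72 6 members fell at 2 h against 0 h and none rose, where 4.92% of all genes fell and 9.77% rose, and in R72 21 fell and none rose, where 6.9% of all genes fell and 6.29% rose. The 6 in P72 were Atp5g1, Ndufa12, Ndufc1, Uqcrq, Atp5b and Atp5a1, and all 6 were among the 21 in R72, which is 28.6% of those. Atp5g1 fell by 0.49 ± 0.12 (limma adjusted p = 0.00647) in P72 and fell by 0.46 ± 0.12 (limma adjusted p = 0.0112) in R72. Ndufa12 fell by 0.35 ± 0.095 and fell by 0.36 ± 0.095, and Atp5b fell by 0.29 ± 0.07 and fell by 0.25 ± 0.07. In R72 Cox7a2 fell by 0.56 ± 0.11 (limma adjusted p = 0.00223), Atp5k fell by 0.50 ± 0.13 and Cox8a fell by 0.47 ± 0.14, where the P72 changes were -0.24 ± 0.11, -0.37 ± 0.13 and -0.14 ± 0.14 and did not pass the threshold. Among the 70 bright members, 6 (8.57%) fell in P72 and 20 (28.6%) in R72, where 8.95% and 14.1% of all bright genes did. The median change was -0.15 in P72 and -0.21 in R72. These counts rest on few arrays: without P72 0 h replicate 3 or 4, or 2 h replicate 1 or 3, the 6 became 2 or 3, without R72 0 h replicate 2, 3 or 4, or 2 h replicate 3, the 21 became 10 to 13, and under normexp both were 0. The 6 also became 3 with no filter on dim probes, 14 with scan date as a block and 32 after median centring, and the 21 became 9 after quantile normalization and 8 in the authors' deposited log2 values. Over all genes 13.4% fell in P72 after median centring, and under normexp 0.936% fell in P72 and 0.681% in R72. In R72 5.21% of all genes fell after quantile normalization and 5.03% in the authors' values.

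Set against 2 h, 27 members fell and 1 rose at 4 h in P72, where 10.8% of all genes fell and 21.9% rose. In R72 6 fell, where 4.98% of all genes did. In P72 Atp5j2 fell by 0.47 ± 0.084 (limma adjusted p = 0.000584), Ndufab1 fell by 0.42 ± 0.11 and Ndufv2 fell by 0.40 ± 0.12 over this interval. In R72 Ndufa10, an accessory subunit of complex I, fell by 0.38 ± 0.11 (limma adjusted p = 0.02) and Ndufv2 fell by 0.37 ± 0.12. Both counts moved by more than 1.5 times when some single arrays were left out: the count of called members in P72 was 16 without 2 h replicate 2 and 17 without 2 h replicate 4. In R72 it was 12 without 2 h replicate 2, 3 without 2 h replicate 1, 2 without 4 h replicate 3, and 1 without 2 h replicate 4 or 4 h replicate 2. The processing moved both counts as well. In P72 the count was 2 under normexp, 11 in the authors' deposited log2 values, 12 after quantile normalization and 78 after median centring. In the same order, 2.37%, 11.2%, 11.9% and 43.3% of all genes fell and 2.02%, 12.9%, 13.5% and 11.1% rose. The R72 count was 0 under normexp, 2 with no filter on dim probes, 10 with the replicate number as a block, 16 with scan date as a block, 19 with slide as a block and 71 after median centring. Of all genes, 0.991% fell and 1.08% rose in R72 under normexp, and 36.3% fell and 9.69% rose after median centring. Same-numbered R72 arrays at 4 and 2 h deviated together in every pair, so the blocked count of 10 is the paired one.

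The codon 72 lines were compared directly at each time, since the study set P72 beside R72. No member passed the threshold at 0, 2 or 4 h by limma, while 0.32%, 0.661% and 0.676% of all genes were higher and 0.606%, 0.631% and 0.601% lower in P72. At an unadjusted p under 0.05, 0, 21 and 1 members were higher and 0, 0 and 2 lower in P72 at the successive times. No share of all genes is given for unadjusted counts, here or below, so they are not read as particular to the members. The median difference over the members was 0.041 at 0 h, 0.11 at 2 h and -0.013 at 4 h, beside -0.004, 0.043 and 0.027 over all genes. Cox7c had the difference furthest from 0 at each time, and Sdhb was also among the first 4 at each. Cox7c differed by 0.77 ± 0.40 (limma adjusted p = 0.574) at 0 h, 0.95 ± 0.40 (limma adjusted p = 0.234) at 2 h and 0.79 ± 0.40 (limma adjusted p = 0.392) at 4 h, and Sdhb by 0.42 ± 0.22 (limma adjusted p = 0.585), 0.41 ± 0.22 (limma adjusted p = 0.352) and 0.58 ± 0.22 (limma adjusted p = 0.228). Without R72 2 h replicate 1 the 2 h comparison called 2 members. At 4 h 1 member was called under 3 other settings. Sdhb, whose product is the iron-sulfur subunit of complex II, was higher in P72 at 4 h by 0.58 ± 0.13 (limma adjusted p = 0.0281) with the replicate number as a block, the paired fit, and by 0.71 ± 0.13 (limma adjusted p = 0.0125) with scan date as a block. Median centring called Cox4nb alone, lower in P72, at -0.50 ± 0.10 (limma adjusted p = 0.0209). Both were chosen after their values were seen.

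Whether the response itself differed between the lines was tested as the difference of the changes, P72 minus R72. No member passed at 2 h or at 4 h by limma, where 0.00501% and 0% of all genes were called higher and 0% at both times lower. At an unadjusted p under 0.05, 1 and 0 members were higher and 0 and 0 lower. The median difference of the changes was 0.055 at 2 h and -0.063 at 4 h, with a median standard error of 0.14 for a single member. For Ndufv2 it was -0.29 ± 0.17 (limma adjusted p = 0.961) at 4 h, and for Sdhb 0.16 ± 0.31 (limma adjusted p = 0.999). These data therefore set a limit on the size of a difference that could be seen, and do not show that the lines respond alike.

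The P53-/- and P53+/+ arrays bear on whether the change after irradiation depends on p53. Irradiated groups held 1 array at 2 h and 1 at 4 h, which were averaged and set against 2 untreated arrays. The fit held all 32 arrays, but groups of 1 array add no spread to it. The standard errors come from the 24 P72 and R72 arrays and the untreated pairs. The p-values therefore do not measure the spread between irradiated P53 samples. In P53-/- no member passed the threshold by limma after irradiation, where 0.331% of all genes fell and 0.756% rose. At an unadjusted p under 0.05, 2 members were higher and 3 lower. In P53+/+ 12 members fell and none rose, where 10.4% of all genes fell and 13.4% rose. The median change was -0.048 in P53-/- and -0.20 in P53+/+, beside -0.005 and 0.092 over all genes. Among the 70 bright members, 10 (14.3%) fell in P53+/+, where 21.5% of all bright genes did, so the members' share was below that of bright genes as a whole. Both irradiated arrays lay below both untreated arrays for 24 members in P53-/- and 58 in P53+/+, against 28.4% and 28.9% of all genes.

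Of the members that fell in P53+/+, 11 also fell in P72 at 4 h, which is 91.7% of the 12 and 21.2% of the 52. Atp5g1 was at 3.99 at 2 h and 3.46 at 4 h in P53-/-, against 3.58 and 3.50 untreated. In P53+/+ it was at 3.36 at 2 h and 2.80 at 4 h, against 3.60 and 3.53 untreated. Its change was 0.18 ± 0.15 (limma adjusted p = 0.727) in P53-/-, and in P53+/+ it fell by 0.49 ± 0.15 (limma adjusted p = 0.0268). Ndufa12 was at 0.04 ± 0.13 in P53-/- and fell by 0.42 ± 0.13 (limma adjusted p = 0.0219) in P53+/+, and Cox7a2 at -0.16 ± 0.15 in P53-/- while it fell by 0.49 ± 0.15 (limma adjusted p = 0.0248) in P53+/+. Atp5b was at -0.17 ± 0.095 in P53-/- and fell by 0.48 ± 0.095 in P53+/+. Ndufa1, the member closest to the threshold without passing it in P53+/+, was at -0.42 ± 0.15 (limma adjusted p = 0.0532) there.

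Cox6a2 was the 1 member called lower in P53+/+ and not in P72. It was at 0.07 and -1.20 on the irradiated P53-/- arrays, against -0.63 and -0.63 untreated. On the irradiated P53+/+ arrays it was at -2.50 and -2.24, against -1.43 and -1.35 untreated, and it fell by 0.98 ± 0.28 (limma adjusted p = 0.0138). Cox7c read 0.51 and 0.15 on the irradiated and 0.40 and 0.24 on the untreated P53-/- arrays. In P53+/+ it read 0.04 at 2 h and 1.57 at 4 h, against 2.08 and 2.26 untreated. Its difference between untreated P53-/- and P53+/+, -1.86 ± 0.53 (limma adjusted p = 0.118), was the furthest from 0 of any member and did not pass the threshold.

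**Figure D4:**
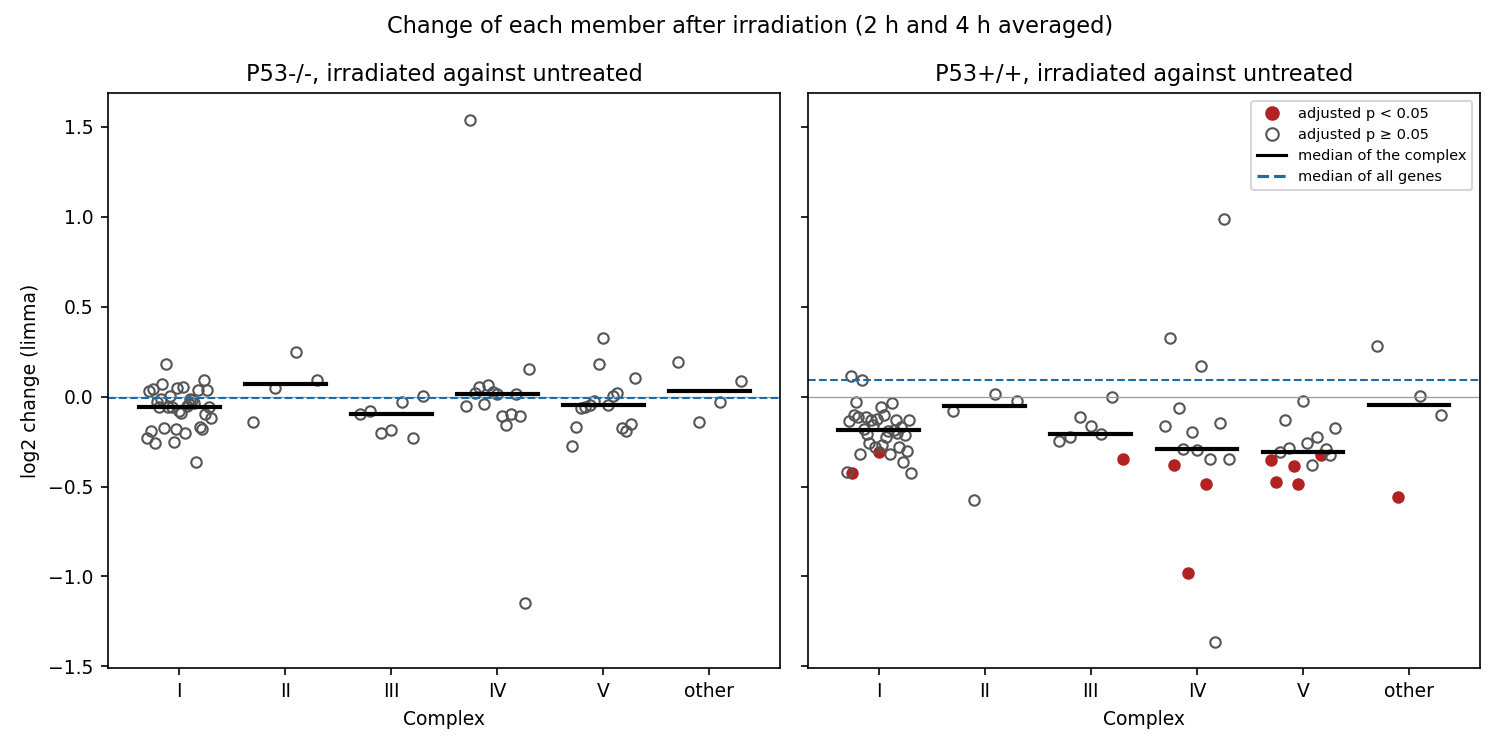
Change of each member after irradiation, with 2 h and 4 h averaged, against untreated arrays in P53-/- (left) and P53+/+ (right), as the limma log2 change (vertical axis), by complex (horizontal axis). Filled points passed an adjusted p of 0.05, open points did not, black bars are the median of each complex, and the dashed line is the median of all genes. The P53-/- points centre near 0 with none filled, and most P53+/+ points lie below 0 with 12 filled.

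The difference between the 2 responses was tested directly. P53-/- minus P53+/+ had a median of 0.17 over the members, beside -0.075 over all genes, and no member passed by limma, where 2.31% of all genes were called higher and 3.19% lower. At an unadjusted p under 0.05, 7 members were higher and 0 lower. For Atp5g1 the difference of the changes was 0.67 ± 0.22 (limma adjusted p = 0.0784) and for Ndufa12 0.47 ± 0.18 (limma adjusted p = 0.136). It called 10 members, all higher, when arrays were centred on their median probe, and 6 in the authors' deposited log2 values. Of all genes, 8.11% were higher and 1.87% lower with median centring, and 4.16% higher and 3.72% lower in the authors' values. The single members' differences were therefore past the threshold under some scalings and not under others.

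Untreated P53-/- and P53+/+ arrays gave no call among the members by limma, where 0.371% of all genes were higher and 0.335% lower in P53-/-, and 5 members were higher and 2 lower at an unadjusted p under 0.05. On irradiated arrays 19 members were higher in P53-/- than in P53+/+ and none was lower, where 8.84% of all genes were higher and 13.3% lower. Among bright genes, 17 of 70 members (24.3%) were higher, where 16.5% of all such genes were. Atp5g1 was higher by 0.65 ± 0.15 (limma adjusted p = 0.00606), Ndufv2 by 0.60 ± 0.16 and Ndufa12 by 0.51 ± 0.13. Cox6a2, which is not a bright gene, was higher by 1.81 ± 0.28. Cox6c, a complex IV subunit, was higher by 0.47 ± 0.13 and Atp5h by 0.46 ± 0.14. Atp5o, a stalk subunit, came closest without passing, at 0.28 ± 0.10 (limma adjusted p = 0.0503). Sdhb differed by 0.74 ± 0.30 (limma adjusted p = 0.0726).

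Both p53 counts rest on single arrays and on the processing. Without the P53+/+ array at 4 h the 12 members that fell in P53+/+ became 1, without that at 2 h they became 19, and without either untreated P53+/+ array 3. Without the P53+/+ array at 4 h, or the P53-/- array at 2 h, the 19 members higher in irradiated P53-/- became 1. On irradiated arrays Xist split by genotype, at 5.50 on both P53+/+ arrays and within the P53-/- range of -8.82 to -7.20 on the others. Genotype and the sex of the mice therefore cannot be told apart there. Both irradiated P53-/- arrays lay on 1 slide and both irradiated P53+/+ arrays on another, so genotype and slide cannot be told apart among irradiated arrays. Each of these slides also held 1 untreated array of either genotype. With slide as a block, which those untreated arrays set, the 19 became 2, both higher in P53-/-, and P53+/+ had 10 members lower and 1 higher after irradiation. Within a slide the median change after irradiation was -0.07 in P53-/- and -0.21 in P53+/+, and that of untreated P53-/- against P53+/+ arrays was 0.07 on the one slide and 0.12 on the other, with 1 untreated array per genotype. The 12 members that fell in P53+/+ became 1 under normexp, 4 after quantile normalization, 5 in the authors' deposited log2 values and 66 after median centring. Of all genes, 2.52% fell in P53+/+ under normexp, 8.82% after quantile normalization and 9.4% in the authors' values. The 19 members higher in irradiated P53-/- became 3 under normexp, where 2.25% of all genes were higher and 2.37% lower, and 71 after median centring. The split of all genes also moved with the scaling. In irradiated P53+/+ 6.98% rose and 31.8% fell with median centring, and in irradiated P53-/- against P53+/+ 31.6% were higher and 8.4% lower, beside 8.28% and 7.61% after quantile normalization and 10.3% and 7.9% in the authors' deposited values.

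Other genes of mitochondrial energy metabolism, on lists chosen with earlier results of these data known, are given as counts beside the same backgrounds. At 4 h, 20.9% of all genes and 41.8% of all bright genes fell in P72, and 16.1% and 33.3% in R72. A count near these shares is not read as particular to its list. Of 14 citric acid cycle enzymes, 12 fell in P72 and 9 in R72 at 4 h, with a median of -0.30 and -0.27. Fumarase, Fh1, fell by 0.84 ± 0.11 and Idh3a, a subunit of isocitrate dehydrogenase, fell by 0.61 ± 0.19 in P72. Of 17 measured genes for cytochrome c, cytochrome c1 and assembly factors, 7 fell in P72 and 6 in R72, where 1, the complex III factor Ttc19, rose. Cytochrome c itself, Cycs, which also triggers apoptosis once released, fell by 0.96 ± 0.11 (limma adjusted p = 5.79e-07) in P72 and fell by 0.73 ± 0.11 in R72. Cyc1, the haem-bearing subunit of complex III outside the naming rule, fell by 0.54 ± 0.11 and fell by 0.49 ± 0.11. Of 10 measured genes that now carry a respiratory chain symbol but had another name on the array, 5 fell in each line, among them Usmg5 (now Atp5md), which fell by 0.76 ± 0.082 in P72 and fell by 0.56 ± 0.082 in R72.

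Of 16 measured genes for mitochondrial DNA maintenance and biogenesis, 8 fell and 2 rose in P72, and 7 fell and 1 rose in R72. Of all genes, 20.9% fell and 36.3% rose in P72, and 16.1% fell and 29.2% rose in R72. Among all bright genes 41.8% fell in P72 and 33.3% in R72. The coactivator Pprc1 fell by 1.21 ± 0.13 (limma adjusted p = 3.9e-07) in P72 and fell by 1.09 ± 0.13 in R72, and the mitochondrial DNA helicase Peo1 (Twinkle) fell by 0.80 ± 0.092 and fell by 0.64 ± 0.092. The related coactivator Ppargc1a rose by 1.50 ± 0.36 (limma adjusted p = 0.00165) in P72, and Polg2, the accessory subunit of the mitochondrial DNA polymerase, by 0.35 ± 0.068. Of 21 transporters and import factors, 10 fell in P72 and 9 in R72, led by the chaperonins Hspd1, which fell by 1.38 ± 0.12 in P72, and Hspe1, which fell by 0.76 ± 0.11.

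The fall was not limited to mitochondrial genes. Of 15 glycolytic genes 10 fell in each line at 4 h, with a median of -0.40 in P72 and -0.53 in R72, and triosephosphate isomerase, Tpi1, fell by 1.67 ± 0.12 (limma adjusted p = 1.23e-09) in P72. Of 11 genes of defence against reactive oxygen 2 fell in P72, Sod2 and Cat, and 5 in R72. Of all genes, 20.9% fell in P72 and 16.1% in R72 at 4 h. Per list, 7 glycolytic and 4 citric acid cycle genes fell in irradiated P53+/+ and none in irradiated P53-/-. Of all genes, 10.4% fell in irradiated P53+/+ and only 0.331% in irradiated P53-/-, so the absence of calls there is not particular to these lists.

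Markers of other cells rose at the same time in P72, and fewer of them in R72. In P72 at 4 h, 8 of 8 neutrophil, 6 of 8 dendritic cell, 5 of 8 macrophage and 6 of 7 thymic epithelial markers rose, and in R72 0, 6, 2 and 3 did. Over all genes 36.3% rose and 20.9% fell in P72, and 29.2% rose and 16.1% fell in R72. The cell type markers' summed signals follow. Their summed signals at 4 h in P72 were 70.4 to 145 times the 75th percentile for neutrophils, 61.7 to 73.6 for dendritic cells, 9.72 to 12.2 for macrophages and 50.6 to 73.1 for epithelium, against 35.1 to 62.4, 24.3 to 42.7, 5.16 to 9.71 and 11.1 to 26.5 at 0 h. In R72 they were 67.1 to 137, 37.2 to 69, 6.44 to 11.9 and 53.9 to 78.9 in the same order at 4 h, against 67.7 to 87.4, 27.2 to 37.4, 6.27 to 8.56 and 30.6 to 39.2 at 0 h. Of 6 B cell markers 1 rose in each line, and 1 fell in P72 and 2 in R72, while none of 4 erythroid markers was called in either. Of the 10 double positive markers 3 fell and 1 rose in P72, and 1 fell and 2 rose in R72. The part of these shifts in the fall of the respiratory chain genes was not tested.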

How the data were processed

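RNA from pooled thymocytes was hybridised to 32 single-colour Agilent arrays. Per the file headers, the authors extracted spot intensities with Agilent Feature Extraction 9.5.3.1 on build mm7, and gProcessedSignal is a background-subtracted intensity in the deposited files. The authors also deposited a table of log2 values of the same arrays, used as an alternative. Its normalization is not given in the sources used here.

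From the intensities, log2 minus the 75th percentile of each array was computed, control spots and outlier flags were left out, spots of 1 probe were averaged, a probe was kept where 4 or more of the 32 arrays read it as well above background, and each gene name was represented by its brightest kept probe. Contrasts used limma 3.58.1 in R 4.3.3, two-sided, with Benjamini-Hochberg adjustment over 19971 genes at 0.05. P72 and R72 contrasts were fitted on their 24 arrays and P53 contrasts on all 32. Other background correction, scaling, filters, probe rules, blocks for replicate number, slide and scan date, and leaving out each array were alternatives. The pairing by replicate number was checked on the deviations from group means. Every one of the 4 same-numbered pairs correlated over 0.1 for P72 at 4 h with 0 h (0.119 to 0.194), R72 at 4 h with 2 h (0.26 to 0.533) and P72 with R72 at 4 h (0.155 to 0.539), and not for the other comparisons. The labels do not tie a number to a litter or day. The test was tried on simulated data. Members and lists were chosen with earlier results of these data known.

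Named members were up to 8 that rose and 8 that fell most per comparison, complex II, the member of each complex with the highest mean level, tissue isoforms with their common partners, X-linked members, those just not called and those with opposed probes, and 2 genes each way per pathway list. Other named examples were chosen after their values were seen. No column of another series was used. The number of arrays limits the precision.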

Additional observations from a re-analysis of the deposited data

Results flagged for a closer look

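Over the 44 named members, the complex medians and the 75th percentiles, 13 of 306 groups of 4 arrays (4.25%) held 1 array whose gap to the nearest of the others exceeded Dixon's 95% limit for 4 samples, and chance alone gives about 5%. No explanation was tested.

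Among P72 arrays at 0 h, replicate 1 was low for Ndufb11 at 5.976 (the others 6.231 to 6.283) and for Uqcrh at 7.479 (7.610 to 7.623). At 2 h replicate 1 was low for Atp5g3 at 6.188 (6.332 to 6.350) and for Ndufa10 at 1.631 (1.751 to 1.771), and replicate 4 was high for Atp5h at 6.640 (6.346 to 6.355). At 4 h replicate 3 was high for Atp5k at 3.748 (3.493 to 3.535), replicate 2 low for Ndufc1 at 3.054 (3.194 to 3.210) and replicate 4 low for Ndufv1 at 4.013 (4.203 to 4.241).

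Among R72 arrays at 0 h, replicate 4 was high for Ndufb11 at 6.270 (6.135 to 6.157), and 1 array stood apart for the median of complex V at 5.794. At 2 h replicate 4 was high for Ndufab1 at 3.447 (2.848 to 2.891) and replicate 1 for Ndufc1 at 3.331 (3.071 to 3.092). The 75th percentile of R72 2 h replicate 4, at 1031.26 units, stood above those of the other 3 arrays of its group.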

How the results depend on the processing

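Counts below are members called, followed where given by their median log2 change. Normexp background correction gave 0 for P72 at 2 h against 0 h, a median of -0.51 for P72 at 4 h against 0 h, 2 and -0.33 for P72 at 4 h against 2 h, 0 and 0.004 for R72 at 2 h, 4 for R72 at 4 h against 0 h, 0 and -0.295 for R72 at 4 h against 2 h, 1 for irradiated P53+/+ and 3 for irradiated P53-/- against P53+/+, with medians of 0.23 for P72 against R72 at 0 h and -0.19 and -0.23 for the differences of their responses at 2 and 4 h. Centring on the median probe gave 32 and -0.34 for P72 at 2 h, -0.95 for P72 at 4 h, 78 and -0.62 for P72 at 4 h against 2 h, -0.32 for R72 at 2 h, 77 and -0.77 for R72 at 4 h, 71 and -0.44 for R72 at 4 h against 2 h, 1 and -0.16 for P72 against R72 at 4 h, -0.20 for P72 minus R72 responses at 4 h, 66 and -0.59 for irradiated P53+/+, 10 and 0.53 for P53-/- minus P53+/+ responses, and 71 and 0.62 for irradiated P53-/- against P53+/+. Quantile normalization gave 35 and -0.21 for P72 at 4 h, 12 for P72 at 4 h against 2 h, 9 and -0.084 for R72 at 2 h, 26 and -0.16 for R72 at 4 h, 4 and -0.071 for irradiated P53+/+, and 0.072 for the difference of the P53 responses. The authors' deposited log2 values gave -0.24 for P72 at 4 h, 11 for P72 at 4 h against 2 h, 8 and -0.058 for R72 at 2 h, 28 and -0.18 for R72 at 4 h, -0.012 for P72 against R72 at 2 h, -0.044 for the difference at 2 h, 5 for irradiated P53+/+, 1 for irradiated P53-/- and 6 for the difference of the P53 responses. With no filter on dim probes, P72 at 2 h gave 3 and R72 at 4 h against 2 h gave 2, and the mean of a gene's probes gave 1 for the P53 difference. A slide block gave 19 for R72 at 4 h against 2 h, 1 for the P53 difference, and 1 and 2 for untreated and irradiated P53-/- against P53+/+. A scan date block gave 14 for P72 at 2 h, 16 for R72 at 4 h against 2 h and 1 for P72 against R72 at 4 h, and other arrays in the fit gave 2 for the P53 difference and 1 for untreated P53-/- against P53+/+. Leaving out 1 array gave 2 to 9 for P72 at 2 h, 16 to 32 for P72 at 4 h against 2 h, 10 to 26 for R72 at 2 h, 1 to 12 for R72 at 4 h against 2 h, 0 to 2 for P72 against R72 at 2 h, 1 to 19 for irradiated P53+/+, 0 to 2 with medians of 0.082 to 0.27 for the P53 difference, and 1 to 26 for irradiated P53-/- against P53+/+. Of 197 called results of single members, 141 were weaker under normexp, 93 after quantile normalization and 85 in the authors' values, by the limits used. Under median centring 196 of the 197 stayed the same. Many adjusted p-values quoted for single members therefore depend on the processing. Of single members, Cox8b in P72 at 4 h turned to -0.070 with quantile normalization and -0.051 in the authors' values, and Uqcrc2 in R72 at 4 h to 0.042 in the authors' values. Of 592 alternatives 498 kept the main value within the limits used. The replicate block gave 10 for R72 at 4 h against 2 h, 1 for P72 against R72 at 4 h and 57 for P72 at 4 h against 0 h. In the other P72 and R72 comparisons, where not every pair correlated over 0.1, it moved no count by over 1.5 times. Over all group pairs, 34 of 60 correlations were over 0.1, and in 39 an array correlated best with its own number. Untreated P53-/- and P53+/+ arrays of equal number correlated at -0.148, and the paired fit and the crossed one, chosen after seeing the data, each gave 0. No paired analysis was possible for irradiated P53 arrays because their labels carry no replicate number. No scan date block was possible within P53 because those arrays share 1 date. The causes were not tested.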
